A study of Homo sapiens with 4 samples.

Results

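The genes described are 10 whose products build contractile filaments: the actins ACTB, ACTG1 and ACTA2, the myosin II chains MYH9 and MYL9, the tropomyosins TPM1, TPM2 and TPM4, and the filament-binding proteins TAGLN and CALD1. They were taken by symbol from the 59409 gene symbols of an RNA-seq table, and all 10 were found. The cells were 786-O, a human renal carcinoma line that lacks functional VHL. The tested libraries were 2 DEK knockouts, from clones grown out of single sorted cells after infection with viruses carrying guides against DEK, a chromatin protein. They were set against 2 controls labelled as negative control with a wild type genotype and named for Cas9. The knockouts were made in a Cas9-expressing clone obtained with a lentivirus, so that line is 1 clone. The labels do not say which knockout clone each library came from, whether the libraries of a group were separate cultures, or whether the controls carried a guide. The differences below therefore separate clones as well as genotypes, which cannot be told apart in 2 against 2 libraries.

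Nonmuscle cells contract with bundles of actin filaments pulled by bipolar filaments of myosin II. Phosphorylation of the regulatory light chain, by myosin light chain kinase among others, switches the motor on, and tropomyosin and caldesmon along the filament set which motors can bind. Many of these genes carry a CArG box, the DNA element bound by serum response factor (SRF), whose cofactors of the MRTF family are held in the cytoplasm by actin monomers. ACTA2, TAGLN, MYL9, TPM2 and CALD1 are best known from smooth muscle and myofibroblasts, whereas ACTB, ACTG1, MYH9 and TPM4 are used by nearly all cells.

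The sequence upstream of the start was available for 7 of the 10 genes, in 14 windows of 250 bases from RefSeq on GRCh38.p14. TAGLN, MYL9 and ACTB had no window and were not searched. A CArG box stood in a window of 2 of these 7 genes, ACTG1 and TPM4, against 1.44% of 27305 symbols with a window. Those symbols have 35116 windows, so the 7 genes had more windows per gene in which a match could fall. ACTA2 and CALD1 held a near match, with 1 of the 6 inner letters replaced by G or C, as did 7.30% of symbols. The windows below are shown because they set a gene that passed the test, and has near matches only, beside genes with a full CArG box and beside MYH9, which passed the test and has neither. They are written 5′ to 3′ on the gene's strand and end at the base before the start. Capitals mark a CArG box in ACTG1 and TPM4 and the near matches in ACTA2. The CArG box is the same on both strands in form, so 1 search covers both.
ACTA2: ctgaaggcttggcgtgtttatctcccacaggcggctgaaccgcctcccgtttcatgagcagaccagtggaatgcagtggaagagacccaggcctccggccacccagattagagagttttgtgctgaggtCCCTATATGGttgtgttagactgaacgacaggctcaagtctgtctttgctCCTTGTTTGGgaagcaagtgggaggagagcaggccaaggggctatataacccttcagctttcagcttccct
ACTG1: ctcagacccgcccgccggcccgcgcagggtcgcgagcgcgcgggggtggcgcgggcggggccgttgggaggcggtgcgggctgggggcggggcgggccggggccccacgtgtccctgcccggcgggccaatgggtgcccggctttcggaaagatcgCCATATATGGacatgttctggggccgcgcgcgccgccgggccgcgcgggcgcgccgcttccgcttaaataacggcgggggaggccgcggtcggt
TPM4: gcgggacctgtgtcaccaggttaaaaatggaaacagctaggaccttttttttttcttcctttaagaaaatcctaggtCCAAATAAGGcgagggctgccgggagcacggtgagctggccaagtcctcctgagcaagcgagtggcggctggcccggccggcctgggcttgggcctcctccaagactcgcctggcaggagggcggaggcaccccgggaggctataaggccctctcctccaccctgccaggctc
MYH9: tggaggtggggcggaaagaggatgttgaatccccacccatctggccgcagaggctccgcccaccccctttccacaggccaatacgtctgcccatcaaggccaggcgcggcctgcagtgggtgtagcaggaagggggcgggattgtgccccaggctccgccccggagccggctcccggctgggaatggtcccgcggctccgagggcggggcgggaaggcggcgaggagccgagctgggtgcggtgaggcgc
The ACTA2 window lies at chr10:88952774-88953023 on the minus strand, before a start inside the gene, and its near matches begin 121 and 71 bases before that start. The ACTG1 window is chr17:81512800-81513049 on the minus strand, with the CArG box 94 bases before the start. The TPM4 window is chr19:16067288-16067537 on the plus strand, with the CArG box 173 bases before the start. The MYH9 window is chr22:36387968-36388217 on the minus strand. The values are per gene and do not show which start was used, and a match is a description of letters, not of binding.

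DEK itself was at 31.4 and 15.7 TPM in the knockouts, against 95.02 and 76.3 TPM in the controls, and fell 3.64-fold (log2 change -1.89, SE 0.33, limma adjusted p = 0.0304). TPM, transcripts per 1000000, divides reads by gene length and scales each library to a fixed total, so levels can be compared between genes but are shares of a library. Estimated depth, in units of 1000000 reads, was 35.8 and 40.0 in the knockouts and 38.9 and 39.5 in the controls. Of the renal carcinoma markers, PAX8 was at 140.1 and 160.4 TPM in the knockouts and 153 and 142 TPM in the controls. PAX2 fell and KRT18 rose (limma adjusted p = 0.0270 and 0.0251), and both were named after their values were seen. PAX8, KRT8 and VIM were not called (adjusted p = 0.861, 0.738 and 0.107). Of all tested genes, 17.7% were called in either direction. Of the 6 markers of mature smooth muscle, 5 were under 1 TPM in all 4 libraries, MYOCD and LMOD1 among them at or near 0. Only SMTN was above 1 TPM. The summed level of the 6 was 91.3 and 102 TPM in the knockouts and 83.9 and 82.0 TPM in the controls. Fibroblast markers summed to between 2.65 and 3.91 TPM in all libraries, with PDGFRA at 0, and endothelial and leukocyte markers to under 1 TPM. Whether cells of another type had a part in the results was not tested.

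ACTA2 and MYH9 were called higher in the knockouts, no member was called lower, and TPM4 and ACTB stood just outside the threshold of 0.05 in opposite directions. The 9 members that reached 1 TPM in at least 2 libraries were tested with limma in a fit over all such genes, and TPM2 was not. Of the 9, 2 were called higher, where 9.06% of all 15815 tested genes were, and 0 were called lower, where 8.67% of all were. In either direction, 17.7% of all tested genes were called. By limma's unadjusted p under 0.05, 4 were higher and 1, ACTB, was lower, where 2670 and 3386 of all tested genes were. The median log2 change was 0.36 over the 9 tested members and -0.06 over all tested genes. Without TAGLN, which passed the filter only through the knockouts, the median of the other 8 was 0.24, and 3 of them were higher by unadjusted p. Both knockouts lay above both controls for 5 of all 10 members, ACTA2, TAGLN, TPM4, MYH9 and the untested TPM2. Among the 8 tested members other than TAGLN this held for 3, where it held for 29.2% of all tested genes. The knockouts lay below for ACTB and ACTG1, where 39.0% of tested genes did, and the groups overlapped for MYL9, TPM1 and CALD1. Without control 1 or without control 2, no member and no gene in the table passed, and unadjusted counts for the members were then 2 and 4 higher and 0 lower.

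**Figure D1:**
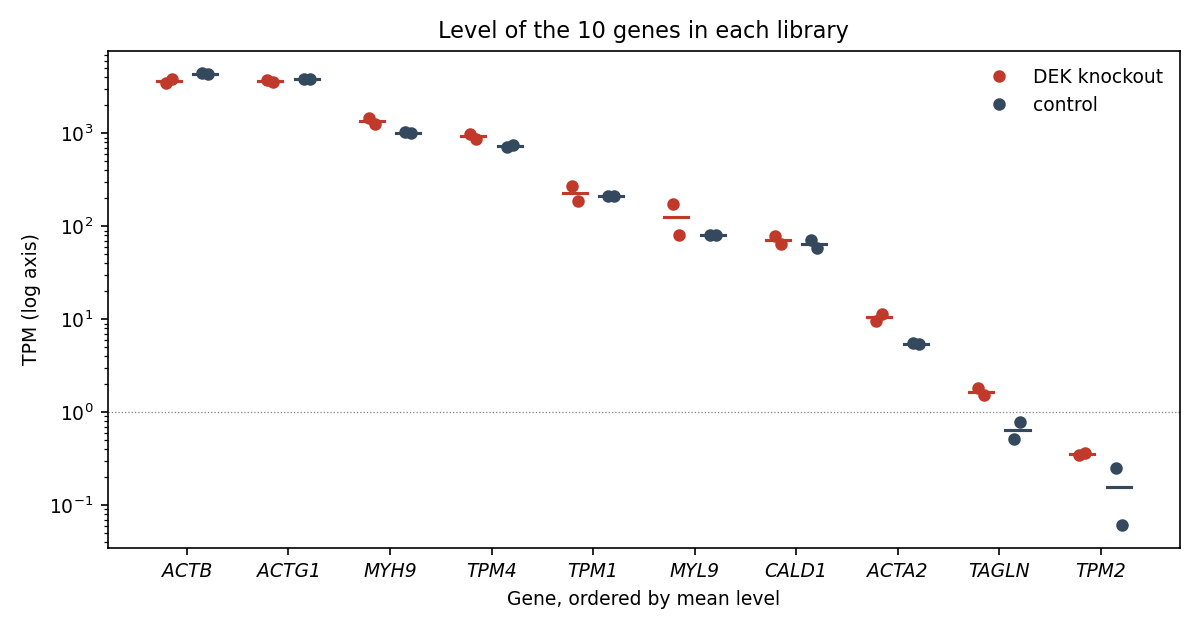
TPM on a log axis of the 10 genes in each library, ordered by mean level. Points are libraries, short lines are group means and the dotted line is 1 TPM. Values span from 4432 TPM for ACTB to 0.0608 TPM for TPM2, both in controls.

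The smooth muscle actin ACTA2, a filament actin that marks smooth muscle and myofibroblasts, was at 9.51 and 11.4 TPM in the knockouts and 5.495 and 5.44 TPM in the controls. Both knockouts were above both controls, and the controls differed little from each other. The mean was 10.4 ± 1.33 TPM in knockouts and 5.47 ± 0.0388 TPM in controls (SD, n = 2 each), 1.91-fold higher, with a log2 change of 0.82 (SE 0.14, limma adjusted p = 0.0300). These levels rest on about 262 and 353 reads in the knockouts and 165 and 170 reads in the controls. In bulk RNA, more cells with the transcript and more transcript per cell cannot be told apart. The gene lies at chr10:88935074-88991339 on the minus strand. Its exons share 12.8% of their bases with FAS and 17.3% with ACTA2-AS1, both on the other strand, and the use of strand in counting is not given. FAS, a death receptor, was at 15.8 and 10.7 TPM in the knockouts and 12.2 and 7.73 TPM in the controls, with overlapping groups. ACTA2-AS1 was at 0.572 and 0.431 TPM in the knockouts and 0.323 and 0.3501 TPM in the controls. The call on ACTA2 passed under 12 of 15 alternatives and was lost without a filter on low values (adjusted p = 0.0826). It was also lost without control 1 (log2 change 0.82) and without control 2 (0.81).

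TAGLN, transgelin, a calponin-related actin-binding protein of smooth muscle, was at 1.82 and 1.52 TPM in the knockouts and 0.5101 and 0.776 TPM in the controls. The groups did not overlap, at about 66 and 62 reads in the knockouts and 20 and 32 reads in the controls. Its mean was 1.67 ± 0.208 TPM in knockouts and 0.643 ± 0.188 TPM in controls (SD, n = 2 each), a ratio of 2.60. It did not pass the test, with a log2 change of 0.70 (SE 0.21, limma adjusted p = 0.0786). Only the knockouts brought it over the 1 TPM filter, so TAGLN entered the test because it was higher there. Its exons at chr11:117199321-117204782 on the plus strand share 11.4% of their bases with PCSK7 on the other strand, which was at 33.1 and 36.8 TPM in the knockouts and 30.5 and 29.2 TPM in the controls. TPM2, the tropomyosin typical of smooth and slow skeletal muscle, was at 0.344 and 0.367 TPM in the knockouts and 0.252 and 0.0608 TPM in the controls. With about 10 and 12 reads in the knockouts and 8 and 2 in the controls it was not tested.

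Several other smooth muscle genes were under 1 TPM in every library. ACTG2, enteric smooth muscle actin, was at 0.282 and 0.251 TPM in the knockouts and 0.03701 and 0 TPM in the controls. CNN1, the smooth muscle calponin, was at 0.348 and 0.568 TPM in the knockouts and 0 and 0.0513 TPM in the controls. MYH11, the smooth muscle myosin heavy chain, was at 0.311 and 0.401 TPM in the knockouts and 0.157 and 0.137 TPM in the controls. None of these reached the level needed for the test. Of the 6 mature smooth muscle markers, MYH11, CNN1, DES and SMTN had both knockouts above both controls, and LMOD1 and MYOCD did not. Only SMTN was tested, and it was not called (limma adjusted p = 0.156). The others were too low for the test, so the share over tested genes is no background for them. Of the striated muscle actins, ACTA1 was at 0.433 and 0.128 TPM in the knockouts and 0.132 and 0.128 TPM in the controls, and ACTC1 was at 0.139 TPM in knockout 2 and at 0 elsewhere. Of 24 sarcomere and striated muscle genes, 22 were under 1 TPM in all libraries, 9 of them at 0, and 1 was tested. That gene, TNNT1, slow skeletal troponin T, was at 21.5 and 54.2 TPM in the knockouts and 6.13 and 5.52 TPM in the controls. TNNT1 rose (log2 change 2.37, SE 0.43, limma adjusted p = 0.0318), where 9.06% of all tested genes were called higher. The call passed under 11 of 15 alternatives and not with a variance prior without a trend (adjusted p = 0.0577).

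The cytoplasmic actins were the most abundant members. ACTB, beta-actin, which is concentrated at the leading edge and in stress fibres, was at 3449 and 3829 TPM in the knockouts and 4432 and 4358 TPM in the controls. Both knockouts were below both controls, knockout 1 the lower of them. The mean was 3639 ± 268 TPM in knockouts and 4395 ± 52.9 TPM in controls (SD, n = 2 each), with a log2 change of -0.27 (SE 0.07, limma adjusted p = 0.0639). ACTB passed with a filter at 5 TPM (adjusted p = 0.0434) and with the GC trend removed (0.0337). Its change was -0.20 without knockout 1 and -0.35 without knockout 2. ACTG1, gamma-actin, which differs from beta-actin in a few residues at the amino end, was at 3789 and 3580.1 TPM in the knockouts and 3894 and 3851 TPM in the controls. The knockouts again lay below the controls, but by less: the log2 change was -0.07 (SE 0.06, limma adjusted p = 0.428).

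The ratio of ACTB to ACTG1 was 0.910 and 1.07 in the knockouts and 1.14 and 1.13 in the controls. Gamma-actin was thus the more abundant of the pair in knockout 1 only, and the ranges of the 2 genes overlapped in the knockouts. Summed over 6 actin genes, the level was 7249 and 7421 TPM in the knockouts and 8332 and 8214 TPM in the controls. ACTA2 made up 0.131% and 0.153% of that sum in the knockouts and 0.0660% and 0.0662% in the controls. The coding sequences of these genes are alike and processed copies are spread over the genome, so part of their reads may have been assigned elsewhere or left out. The 11 ACTB pseudogene symbols summed to 3.75 and 4.89 TPM in the knockouts and 2.13 and 2.30 TPM in the controls, and the 21 ACTG1 pseudogene symbols to 6.21 and 6.26 TPM and 6.72 and 5.85 TPM in the same groups. ACTB lies at chr7:5527147-5563784 and ACTG1 at chr17:81509971-81523847, both on the minus strand.

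**Figure D2:**
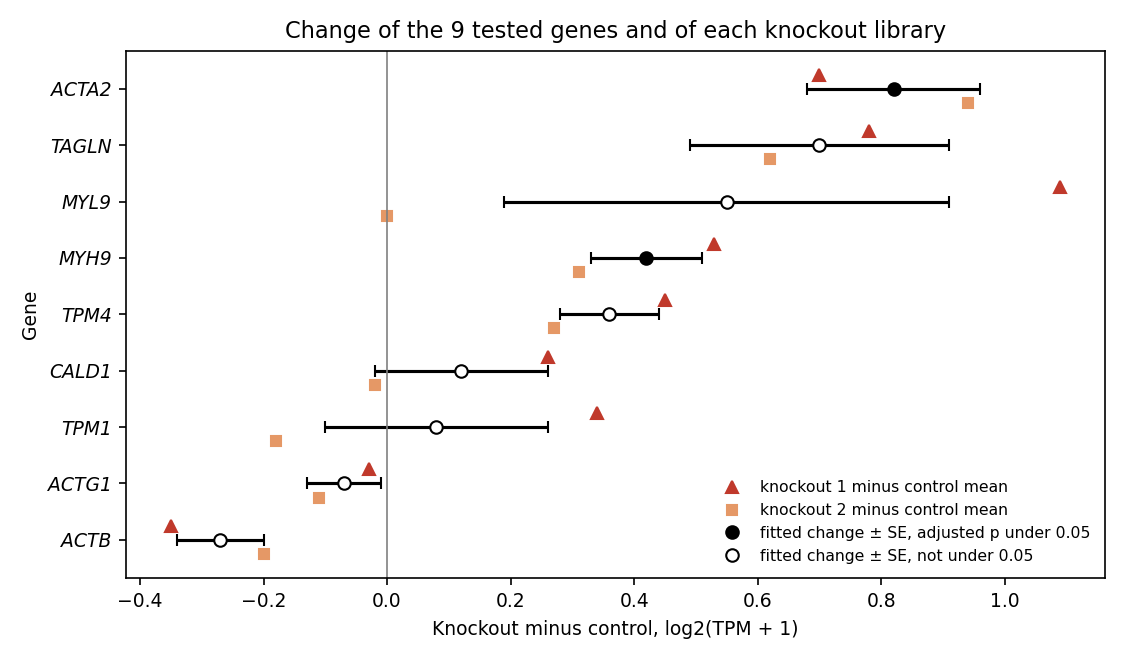
Fitted log2 change of the 9 tested genes with its SE (circles) and each knockout library minus the mean of the controls (triangles and squares). Filled circles, ACTA2 and MYH9, passed the test. In MYL9, TPM1 and CALD1 knockout 1 lies to the right of 0 by at least 0.26 and knockout 2 does not.

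MYH9, the heavy chain of nonmuscle myosin IIA and the main motor of stress fibres, was at 1472 and 1270.3 TPM in the knockouts and 1035 and 1009.6 TPM in the controls. Both knockouts were above both controls, knockout 1 further. The mean was 1371 ± 143 TPM in knockouts and 1022 ± 17.6 TPM in controls (SD, n = 2 each), 1.34-fold higher, with a log2 change of 0.42 (SE 0.09, limma adjusted p = 0.0406). MYH9 lies at chr22:36281277-36388067 on the minus strand, and its neighbours were also higher in both knockouts. The median difference of the 51 other tested genes within 2 Mb was 0.38 in knockout 1 and 0.45 in knockout 2, beside 0.53 and 0.31 for MYH9 itself. Within 5 Mb the medians of 115 other tested genes were 0.16 and 0.22. Over the 389 other tested genes of chromosome 22 the medians were 0.19 and 0.25. With each chromosome's median removed, the change of MYH9 was 0.20 (adjusted p = 0.206), and with the GC trend removed 0.32 (adjusted p = 0.115). It passed under 9 of 15 alternatives.

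MYH10, the heavy chain of nonmuscle myosin IIB, was at 37.1 and 33.8 TPM in the knockouts and 45.7 and 43.8 TPM in the controls (adjusted p = 0.0655 with limma). Both knockouts were below both controls, opposite to MYH9. The ratio of MYH9 to MYH10 was 39.7 and 37.6 in the knockouts and 22.6 and 23.0 in the controls, and this ratio does not depend on scaling of the libraries. MYH9 made up 97.5% and 97.4% of heavy chain TPM in the knockouts and 95.8% in both controls. MYH14, the IIC chain, was at 0.0153 and 0.0409 TPM in the knockouts and at 0 in both controls.

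MYL9, a regulatory light chain of smooth muscle and nonmuscle myosin II, was at 174 and 81.1 TPM in the knockouts and 81.2 and 80.8 TPM in the controls. Only knockout 1 stood apart, and knockout 2 lay between the controls. The mean was 127 ± 65.6 TPM in knockouts and 81.0 ± 0.347 TPM in controls (SD, n = 2 each), with a log2 change of 0.55 (SE 0.36, limma adjusted p = 0.316). Without knockout 2 the change was 1.09, and without knockout 1 it was 0.00. The 60 other tested genes within 2 Mb of MYL9, at chr20:36541484-36551447 on the plus strand, had median differences of -0.01 in knockout 1 and 0.14 in knockout 2, and the 109 within 5 Mb of 0.02 and 0.11. The ubiquitous regulatory chains were higher in level: MYL12A was at 775 and 679.7 TPM in the knockouts and 558 and 572 TPM in the controls. MYL12A rose (log2 change 0.36, SE 0.08, limma adjusted p = 0.0474), a call that passed under 7 of 15 alternatives and not with a replicate block (0.0585). MYL12B was at 509.9 and 455 TPM in the knockouts and 459 and 482 TPM in the controls, with overlapping groups (adjusted p = 0.786). MYL9 held 11.9% and 6.67% of regulatory light chain TPM in the knockouts and 7.40% and 7.11% in the controls. Of the 7 myosin II chains beside the 2 members, 5 were tested. Of these 1, MYL12A, was higher and 0 were lower (all tested genes 9.06% and 8.67%).

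Among the tropomyosins, rods that lie along the actin filament, TPM4 was the most abundant, at 993 and 875 TPM in the knockouts and 706 and 750.4 TPM in the controls. Both knockouts were above both controls. Its mean was 934 ± 83.4 TPM in knockouts and 728 ± 31.7 TPM in controls (SD, n = 2 each), a ratio of 1.28, and it did not pass the test (log2 change 0.36, SE 0.08, limma adjusted p = 0.0505). TPM4 passed with a filter at 5 TPM (0.0388) and with quantile normalization (0.0424). Its change was 0.27 without knockout 1 and 0.45 without knockout 2. The gene lies at chr19:16067021-16103005 on the plus strand. TPM1, whose isoforms serve striated muscle, smooth muscle and stress fibres, was at 269 and 188 TPM in the knockouts and 211 and 214 TPM in the controls. Knockout 1 was above and knockout 2 below both controls, with a log2 change of 0.08 (SE 0.18, limma adjusted p = 0.778). Without knockout 2 the change was 0.34, and without knockout 1 it was -0.18. TPM1 lies at chr15:63042632-63071915 on the plus strand, and 16.1% of its exon bases are shared with TPM1-AS on the other strand, which was under 1 TPM in all libraries.

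TPM3, the remaining tropomyosin gene, was at 179 and 159 TPM in the knockouts and 185 and 191 TPM in the controls (adjusted p = 0.224 with limma). The 4 tropomyosins summed to 1440.4 and 1222 TPM in the knockouts and 1102 and 1155 TPM in the controls. TPM4 made up 68.9% and 71.6% of that sum in the knockouts and 64.0% and 65.0% in the controls. The ratio of TPM4 to TPM3 was 5.56 and 5.50 in the knockouts and 3.81 and 3.94 in the controls, without overlap between the groups. The share of TPM1 overlapped, at 18.6% and 15.4% in the knockouts and 19.1% and 18.5% in the controls. TPM2 held 0.0239% and 0.0300% of the sum in the knockouts and 0.0229% and 0.00526% in the controls.

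CALD1, caldesmon, which binds actin, tropomyosin and myosin and restrains the motor, was at 78.2 and 64.3 TPM in the knockouts and 71.7 and 59.1 TPM in the controls. The groups interleaved, with a log2 change of 0.12 (SE 0.14, limma adjusted p = 0.569). CALD1 lies at chr7:134744252-134970728 on the plus strand. It is on the same chromosome as ACTB, whose 35 tested neighbours within 2 Mb had a median difference of -0.37 in knockout 1 and -0.02 in knockout 2, beside -0.35 and -0.20 for ACTB. Within 5 Mb the medians of 70 genes were -0.47 and -0.03. With each chromosome's median removed, the change of ACTB was -0.20 (adjusted p = 0.0673). For ACTA2 the 28 tested neighbours within 2 Mb had medians of 0.07 and 0.08, and the 53 within 5 Mb of -0.08 and -0.19, beside 0.70 and 0.94 for the gene. For TPM4 the 81 tested neighbours within 2 Mb had medians of 0.06 and 0.12, and the 223 within 5 Mb of 0.04 and 0.07, beside 0.45 and 0.27 for the gene.

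**Figure D3:**
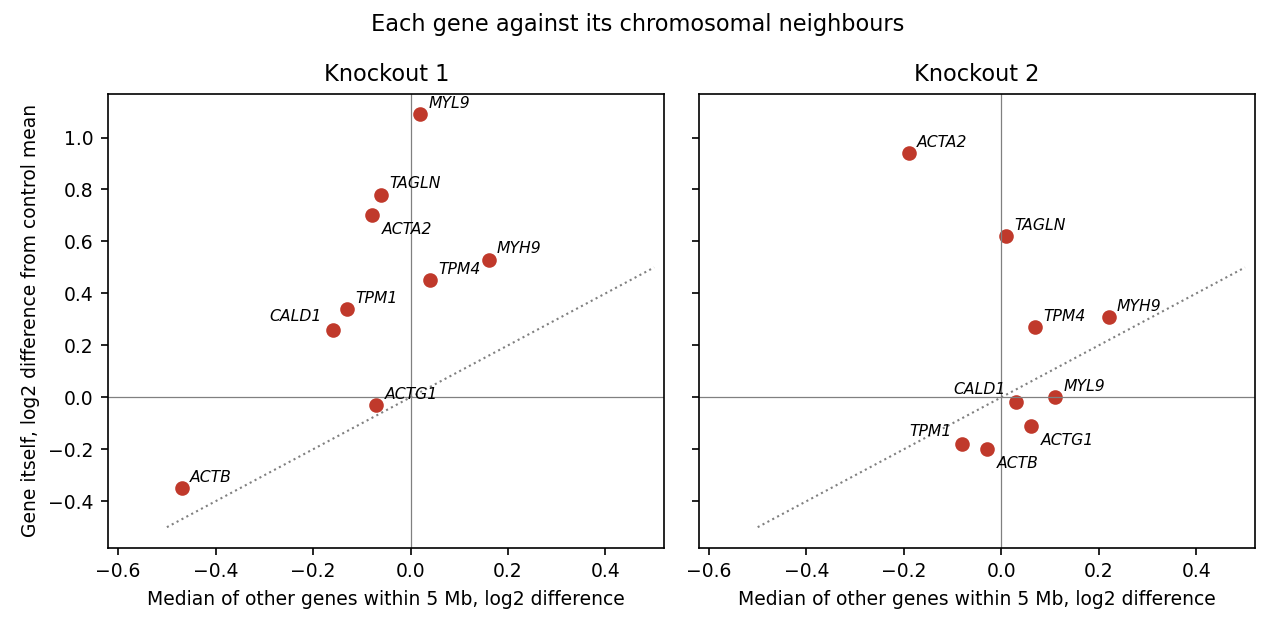
Difference of each tested gene from the control mean, in log2(TPM + 1), against the median difference of the other tested genes within 5 Mb, for knockout 1 (left) and knockout 2 (right). The dotted line marks equal values. ACTA2 stands at 0.70 and 0.94 over neighbours at -0.08 and -0.19, MYH9 at 0.53 and 0.31 over neighbours at 0.16 and 0.22, and ACTB in knockout 1 at -0.35 over neighbours at -0.47.

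In the knockouts the order of mean levels was ACTG1, ACTB, MYH9, TPM4, TPM1, MYL9, CALD1, ACTA2, TAGLN and TPM2, and the controls differed from it in having ACTB above ACTG1. Among neighbours in the knockout order, ACTG1 and ACTB overlapped. MYL9 and CALD1 did not overlap, but the lower MYL9 library and the higher CALD1 library were closer to each other than the libraries of either gene were. In the controls each gene lay in both libraries above both values of the next. The 10 genes held 1.02% and 0.990% of each knockout library's TPM and 1.04% and 1.03% of each control library's.

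**Figure D4:**
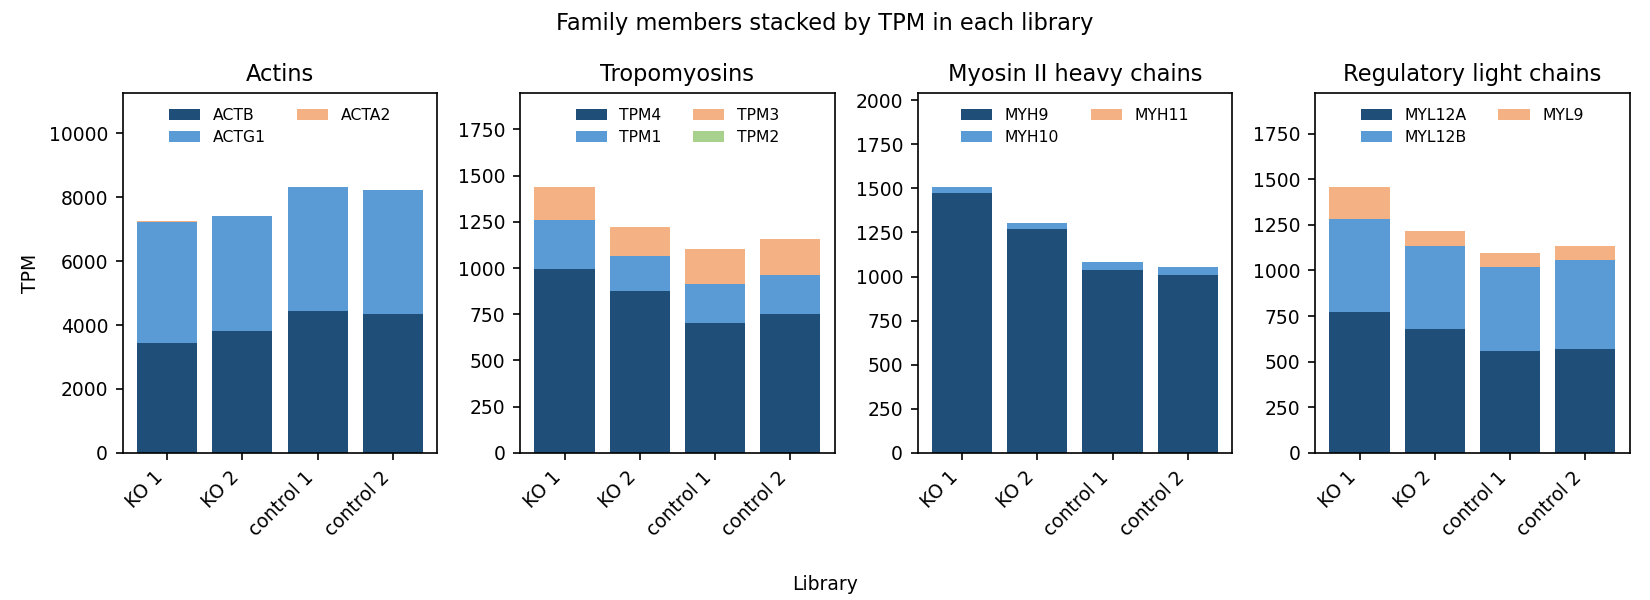
Stacked TPM of actins, tropomyosins, myosin II heavy chains and regulatory light chains in each library, knockouts left of controls. Actin sums are lower in both knockouts, and heavy chain, tropomyosin and regulatory light chain sums are higher. ACTA2, TPM2 and MYH11 are too low to be seen.

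The genes that regulate the filaments were described from companion lists. Of 15 thin filament proteins 7 were tested, 0 were higher and 1 was lower (all tested genes 9.06% and 8.67%), with a median log2 change of 0.05. The 1 was CNN3, acidic calponin, at 245 and 207 TPM in the knockouts and 309.7 and 298 TPM in the controls (log2 change -0.43, SE 0.10, limma adjusted p = 0.0465). CNN3 passed under 9 of 15 alternatives, not with median ratio scaling (adjusted p = 0.0631) or with the GC trend removed (0.0703). It passed with chromosome centring, at a smaller change of -0.26 (adjusted p = 0.0433). CNN2 was at 563 and 481 TPM in the knockouts and 489 and 478 TPM in the controls, and TAGLN2, the broadly expressed transgelin, at 1180.1 and 1042 TPM and 1084 and 1056 TPM in the same groups. The groups overlapped in both genes.

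Of 20 genes of light chain phosphorylation and its upstream regulators 17 were tested, 4 were higher and 1 was lower (all tested genes 9.06% and 8.67%), with a median of -0.07. MYLK, myosin light chain kinase, which activates the regulatory chains, fell to 27.7 and 29.1 TPM in the knockouts, against 49.2 and 46.8 TPM in the controls (log2 change -0.74, SE 0.08, limma adjusted p = 0.0161). The groups lay far apart, and the libraries within each were close. ARHGEF2, a microtubule-bound exchange factor, rose to 39.4 and 48.3 TPM in the knockouts, against 21.9 and 19.96 TPM in the controls (log2 change 1.03, SE 0.13, adjusted p = 0.0183 with limma). DAPK3, a kinase of the regulatory light chain, had a log2 change of 0.41 and was also called higher.

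Of 17 genes for SRF, its cofactors and targets of the MRTF pathway outside the members, 16 were tested, 5 were higher and 0 were lower (all tested genes 9.06% and 8.67%), with a median of 0.20. Limma's unadjusted p was under 0.05 for 9 of the 16, of which 2, MRTFB and CSRP2, were lower. Of all 15815 tested genes, 2670 were higher and 3386 lower by the same measure. FHL2, a LIM protein that binds SRF, rose to 186 and 175 TPM in the knockouts, against 119 and 115 TPM in the controls (log2 change 0.62, SE 0.07, limma adjusted p = 0.0161). CSRP1, a LIM protein of actin bundles, rose to 221 and 216 TPM in the knockouts, against 161 and 156 TPM in the controls (log2 change 0.46, SE 0.06, adjusted p = 0.0196). MICAL2, an actin-oxidizing enzyme, rose to 134 and 218 TPM in the knockouts, against 65.4 and 63.8 TPM in the controls (log2 change 1.39, SE 0.23, adjusted p = 0.0282). The remaining pair were VCL, vinculin, and PDLIM7, with log2 changes of 0.36 and 0.46, and with a replicate block VCL had an adjusted p of 0.0553. SRF itself was at 51.4 and 49.8 TPM in the knockouts and 40.4 and 40.8 TPM in the controls, with groups apart but an adjusted p of 0.0530. Its cofactor MRTFA was at 16.2 and 16.6 TPM in the knockouts and 15.8 and 16.8 TPM in the controls. MRTFB, of the same family, was at 11.4 and 11.2 TPM in the knockouts and 15.2 and 13.5 TPM in the controls. The log2 change of MRTFB was -0.32 (limma adjusted p = 0.119), and that of CSRP2 was -0.36 (0.082).

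Of 28 actin monomer, severing, capping and crosslinking genes all were tested, 6 were higher and 2 were lower (all tested genes 9.06% and 8.67%), with a median of 0.04. LIMA1, a bundling protein that slows filament turnover, rose to 58.9 and 62.5 TPM in the knockouts, against 24.6 and 24.9 TPM in the controls (log2 change 1.26, SE 0.08, limma adjusted p = 0.00853). GSN, gelsolin, which cuts and caps filaments, rose to 60.04 and 63.6 TPM in the knockouts, against 34.8 and 32.98 TPM in the controls (log2 change 0.85, SE 0.08, adjusted p = 0.0140). TMSB4X, thymosin beta-4, which binds actin monomers, rose to 1841 and 1813 TPM in the knockouts, against 1296 and 1338 TPM in the controls (log2 change 0.47, SE 0.06, adjusted p = 0.0167). CAPG, CTTN and ARPC2 were the other calls upward, with log2 changes of 0.80, 0.36 and 0.32, and with a replicate block ARPC2 had an adjusted p of 0.0616. CFL2, muscle cofilin, and CAPZA2, a capping protein subunit, fell by 0.88 and 0.38 on the log2 scale. CAPZA2 passed under 8 of 15 alternatives, and with the GC trend removed its change was -0.13 (adjusted p = 0.30 with limma), and the block gave 0.0633. Calls thus went both ways among the severing proteins, with GSN higher and CFL2 lower.

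**Figure D5:**
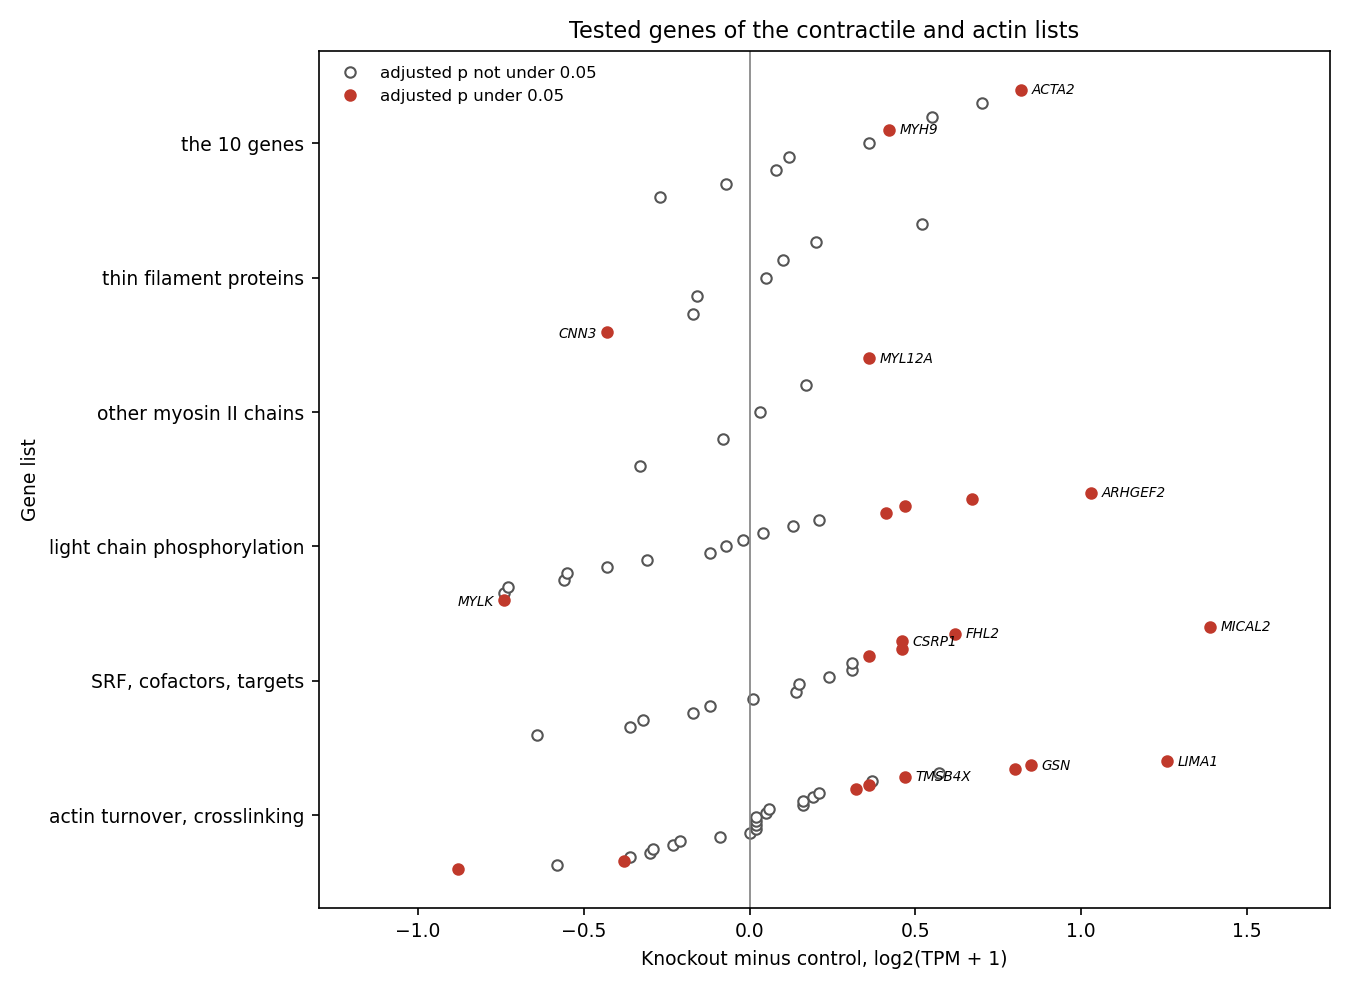
Log2 change, knockout minus control, of each tested gene in 6 lists, ordered within each list. Filled points passed the test, and genes named in the text by rule are labelled. Upward calls outnumber downward ones in the SRF and actin turnover lists, and MYLK is the downward call of the kinase list.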

How the data were processed

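Polyadenylated RNA of 4 libraries was sequenced, per the labels' protocols. The authors deposited 1 table of TPM, each column summing to 1000000. The build hg38 and the tools STAR 2.7.8a, cutadapt 1.18, DESeq2 1.36.0 and featureCounts 2.0.1 are listed without roles, per the submitters' processing notes. The annotation, lengths and strand setting behind the values were not given in the sources used here. From the deposited TPM, limma 3.58.1 (R 4.3.3) fitted log2 values, after adding 1 TPM, of the 15815 genes that reached 1 TPM in 2 or more libraries. Group was the only term and the variance prior followed mean level. Tests were two-sided and p-values were adjusted by Benjamini-Hochberg over all of these genes at 0.05. The added 1 TPM makes log2 changes of low genes too small, and fold values are ratios of mean TPM. The fit was tested on simulated data. The 15 alternatives were other pseudocounts, filters, scalings and variance prior, a replicate block, chromosome centring, removal of the GC trend, and leaving out each library. A fit without 1 library has 1 library left in that group, so its p-values rest on the spread of the other group. Counts of alternatives passed include these fits. Groups and replicate numbers came from the titles. Since the labels do not say that libraries of a group were separate cultures, a p-value here reflects nothing but the spread among these 4 libraries, possibly a technical one. With 2 against 2, a permutation test cannot go below 0.333, so none was used.

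Positions are from GENCODE on GRCh38, counted from 1. Read numbers and depth were estimated from the steps in low values: of low values of genes with 1 transcript, 88.0% to 88.9% were whole within 0.02, where 4% would be by chance. They are approximate. The genes, lists and alternatives were chosen with earlier results of these data known. The genes named are the 10, DEK, their family members, and up to 3 genes per list past the threshold with the smallest p. DAPK3, VCL, PDLIM7, CFL2, CAPG, CAPZA2, CTTN, ARPC2, SRF, MRTFA, MRTFB and CSRP2 are outside that rule and were named after their values were seen. The lists are textbook groupings and give no independent support. Some genes of the light chain phosphorylation list are not reported here.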

Additional observations from a re-analysis of the deposited data

How the results depend on the processing

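Without a filter on low values, 26 genes were higher and 0 lower (limma, unadjusted p under 0.05 for 3505 and 3663), and 0 of the 10 genes and of the named list genes were called (unadjusted 4 and 0 of the 10). A variance prior without a trend gave 866 higher and 571 lower, with 1 of the 10 higher. Chromosome centring and removal of the GC trend each left 1 of the 10 higher. With the GC trend removed 1 was lower, ACTB, as with a filter at 5 TPM, where 1 was lower and 3 were higher. Leaving out 1 library in turn gave 0 to 2443 genes higher and 0 to 2846 lower, and 0 to 5 of the 10 higher and 0 to 1 lower. The 0 came from leaving out either control, with 1632 and 1482 genes higher and 1189 and 1712 lower at unadjusted p under 0.05. Quantile normalization added TPM4. Leaving out 1 library gave log2 changes from -0.18 (without knockout 1) to 0.34 (without knockout 2) for TPM1, and from -0.02 (without knockout 1) to 0.26 (without control 1) for CALD1, which was -0.01 without control 2. The causes were not tested. TAGLN, CALD1 and ACTG1 passed under no alternative.

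The replicate numbers share only a number: the correlation of deviations between same-numbered libraries was 0.0989. With the replicate block, 1423 genes were higher and 1548 lower, and 2 of the 10 higher and 0 lower. Among calls on the 10 genes, DEK and the lists, the block ended those on MYL12A (adjusted p = 0.0585), VCL (0.0553), ARPC2 (0.0616) and CAPZA2 (0.0633), and no other. Genes under 1 TPM, TPM2, ACTG2 and CNN1 among them, rest on few reads.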
